A study of Mus musculus with 8 samples.

Results

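The β-cells described here were those with the highest endoplasmic reticulum (ER) chaperone load among islet cells of mice. β-cells were cells with at most 3000 genes and 20000 unique molecular identifiers (UMIs), at least 20% of UMIs from Ins1 and Ins2, and under 5% from each of Gcg, Sst and Ppy. Their load was the share of Hspa5, Hsp90b1, Pdia3, Pdia4, Pdia6, Calr, Manf and Sdf2l1 in the UMIs that did not come from Ins1 or Ins2. The cells were chosen by this measured load, as the top quartile (25%) of β-cells in each sample, which gave 234 of 923 β-cells and of 1240 cells in all. The bottom quartile of the same samples also held 234 cells and served for comparison. Islets came from 8-week-old male C57BL/6J mice, either 2 days after a 50% partial pancreatectomy (PPTx) or without any operation, so surgery as such and resection cannot be told apart. There were 4 control and 4 PPTx samples, each made of islets pooled from 1 to 3 mice, dispersed and sequenced as single cells in droplets. The labels do not say which mice a sample held, and p-values measure the spread between these pooled samples. Of the cells with the highest load, 93 came from control and 141 from PPTx samples, with 14, 19, 31 and 29 cells in control replicates 1 to 4 and 25, 56, 26 and 34 cells in PPTx replicates 1 to 4.

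Insulin is made as preproinsulin, which enters the ER, folds around disulfide bonds and leaves in vesicles for the Golgi. The chaperones that hold and fold it are induced together when unfolded protein builds up, through the unfolded protein response (UPR) with its sensors IRE1, PERK and ATF6. β-cells are known for a high basal demand on this system because insulin is a large part of what they synthesize.

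Most markers of the β-cell label were more often seen in the members than in other cells. Ucn3, a maturity marker of β-cells, had a UMI in 82.9% of the 234 cells with the highest load and in 10.7% of the 317 cells that were not called β-cells, with medians of 7373 and 4260 UMIs per cell. G6pc2, a β-cell glucose-6-phosphatase subunit, had a UMI in 98.3% and 37.2% of them. Neurod1 at 62.8% and 58.0% differed little and Nkx2-2 at 39.7% and 48.3% was less frequent in the members, both being transcription factors of other islet cells as well. Pdx1 was seen in 9 of the 234 cells and Mafa in 0 of 234, which allows a share of up to 1.28% of cells with a UMI, so these transcription factors could not serve as a check at this depth. Totals per sample ranged from 236645 to 1580152 UMIs. Control replicate 1 was the shallowest, with 22606 UMIs outside the insulin genes in its top quartile, and PPTx replicate 2 the deepest there, with 174777.

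The load itself chose the cells and is given as a description. The lowest load in the top quartile was 0.777%, 0.860%, 1.15% and 0.967% in control replicates 1 to 4, and the highest load outside it was 0.777%, 0.860%, 1.12% and 0.959%. In PPTx replicates 1 to 4 the lowest load inside was 1.29%, 1.31%, 1.51% and 1.42%, and the highest outside was 1.26%, 1.31%, 1.45% and 1.40%. The cells on either side of the limit were therefore close to each other, and the top quartile is a range of a continuous measure. The standard deviation of the load over the cells of a sample was 1.38 to 2.71 times that of counting error alone, with the lowest ratio in control replicate 1 and the highest in PPTx replicate 3. Part of the ranking is thus counting error, which is largest in shallow cells.

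**Figure D1:**
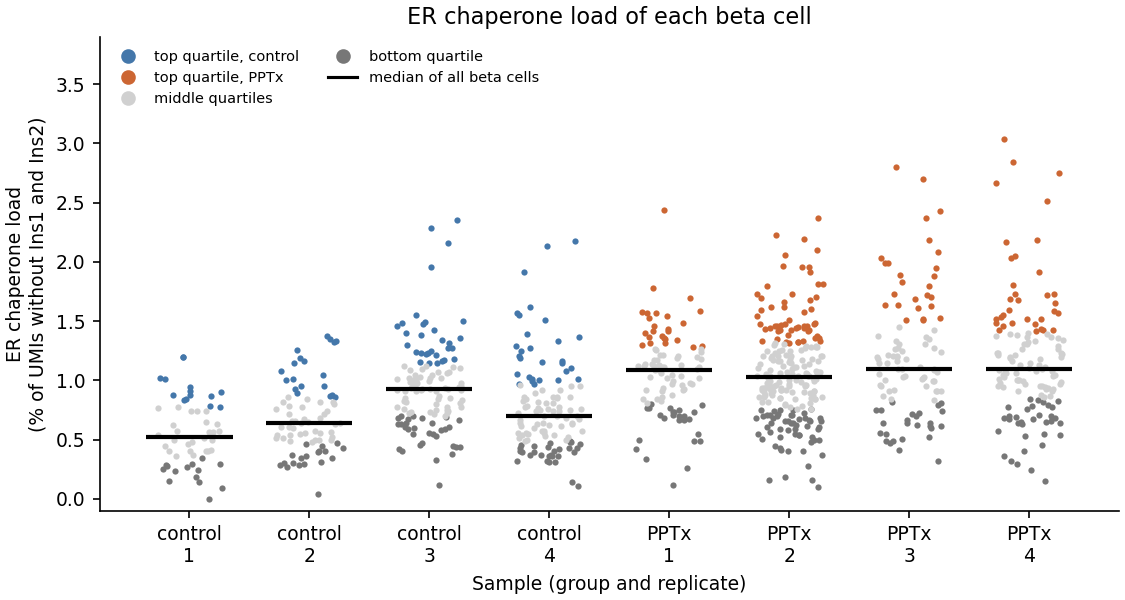
ER chaperone load (percent of the UMIs without Ins1 and Ins2) of each of the 923 β-cells, by sample. Coloured points are the top quartile, dark grey points the bottom quartile and light grey points the rest, and black lines are medians over all β-cells of a sample, which lie between 0.526% and 0.928% in control and between 1.03% and 1.10% in PPTx samples.

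Hspa5 (BiP, the ER Hsp70) gave 24.4% of the chaperone UMIs of all β-cells, Manf (a secreted ER-resident BiP cofactor) 18.7%, Hsp90b1 (GRP94, the ER Hsp90) 15.8%, Pdia6 (a disulfide isomerase) 15.8% and Calr (the lectin chaperone calreticulin) 14.9%. Sdf2l1, a partner of BiP with its J-domain proteins, gave 5.98%, and the disulfide isomerases Pdia3 and Pdia4 gave 2.79% and 1.60%. The load was therefore set mainly by the former 5 genes. Pdia4 had a UMI in 32.2% of β-cells and Hspa5 in 95.1%. In the top quartile Hspa5 ranged from 22.1 to 50.6 with a median of 37.5 UMIs per 10000 UMIs outside the insulin genes over the 8 samples, against 8.02 to 16.8 with a median of 11.7 in the bottom quartile. Sdf2l1 ranged from 3.72 to 14.5 with a median of 9.60 in the top and from 0.554 to 4.18 with a median of 2.41 in the bottom quartile. By construction all 8 genes were higher in the top quartile in each of the 8 samples, with ratios of the means from 2.14 for Calr to 3.94 for Pdia4.

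The promoters of these genes were searched for the ER stress response element (ERSE), the sequence through which ATF6 and the CCAAT factor NF-Y are known to act together. The letters searched were CCAAT, 9 bases of any kind and CCACG, on both strands in the 250 bases before each gene start of RefSeq (GRCm38.p6, the assembly also called mm10), and 0.113% of the 32851 promoters of this length held them. Of the 8 chaperones, 7 had a promoter entry and 4 of these held the element, namely Hspa5, Hsp90b1 (at 2 places), Pdia6 and Calr. Manf had no entry. The sites below are those of the 4 of the 8 genes that defined the load. They are shown together with those of Creld2 and Dnajc3, the genes of the ER co-chaperone list called in the comparison below whose promoters held it. The promoter of Canx, an ER lectin chaperone of the same list that was tested and not called, held it too. They are written 5′ to 3′ on the strand of the gene, the letters fixed by the motif are in capitals, and a site on the opposite strand reads CGTGG, 9 bases and ATTGG.
Hspa5, chr2:34772013-34772055, plus strand, 65 bases before the start: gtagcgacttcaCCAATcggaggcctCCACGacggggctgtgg
Hsp90b1, chr10:86705626-86705668, minus strand, 212 bases before the start: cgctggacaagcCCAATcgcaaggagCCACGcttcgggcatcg
Hsp90b1, chr10:86705521-86705563, minus strand, 107 bases before the start, opposite strand of the gene: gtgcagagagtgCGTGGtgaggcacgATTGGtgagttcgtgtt
Pdia6, chr12:17266479-17266521, plus strand, 98 bases before the start: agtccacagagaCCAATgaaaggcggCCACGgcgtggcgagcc
Calr, chr8:84847063-84847105, minus strand, 162 bases before the start, opposite strand of the gene: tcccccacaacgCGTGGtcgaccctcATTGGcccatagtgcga
Creld2, chr15:88819508-88819550, plus strand, 126 bases before the start, opposite strand of the gene: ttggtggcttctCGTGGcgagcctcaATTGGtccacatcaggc
Dnajc3, chr14:118937815-118937857, plus strand, 105 bases before the start: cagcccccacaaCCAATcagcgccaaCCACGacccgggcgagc
A match of letters does not show binding. The windows of Pdia3, Pdia4 and Sdf2l1 held no such letters, which says nothing of other elements or other positions.

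Whether the chaperones vary together, beyond the ranking by their own counts, was examined by leaving each gene out in turn and ranking the β-cells by the other 7. Of the 7 left-out genes that passed the filter on low counts, all 7 rose in the top quartile by edgeR's quasi-likelihood test, while of all genes tested in each fit 6.18% were called higher with Hspa5 left out, 6.83% with Hsp90b1, 6.83% with Pdia3, 7.29% with Pdia4, 6.2% with Pdia6, 7.01% with Calr, 6.32% with Manf and 7.2% with Sdf2l1. Left-out Hspa5 ranged from 1875 to 4566 UMIs per 1000000 (CPM) with a median of 3333 in the top quartile and from 1122 to 2282 with a median of 1574 in the bottom quartile. The ranges of the 8 samples overlapped, but Hspa5 was higher in the top quartile within each of them, by a log2 fold change of 0.99 ± 0.10 (SE) with an adjusted p of 1.58e-09 by edgeR. Left-out Sdf2l1 ranged from 292 to 1247 CPM with a median of 838 in the top and from 152 to 538 with a median of 279 in the bottom quartile, a log2 fold change of 1.36 ± 0.14 (SE, edgeR adjusted p = 8.49e-10). It was the largest difference of the 7.

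Hsp90b1 rose by 1.07 ± 0.10 (log2 fold change ± SE), Manf by 0.93 ± 0.12 and Pdia6 by 0.88 ± 0.10. Pdia3 rose by 0.63 ± 0.19 and Calr by 0.56 ± 0.10, with edgeR adjusted p-values of 0.0226 and 3.07e-04. The call of Pdia3 was lost without control replicate 4, without PPTx replicate 2 and with cells ranked within bins of UMIs. That of Calr was lost with cells thinned to 2000 UMIs and ranked anew. Left-out Pdia4 ranged from 44.6 to 414 CPM in the top and from 0 to 153 CPM in the bottom quartile. It did not pass the filter, and was higher in 8 of 8 samples with a two-sided exact sign-flip p of 0.00781, the smallest that 8 samples allow. In cells thinned to 2000 UMIs, Spearman's rho between 2 of the chaperones across the cells of a sample had a median over samples from -0.00 for Pdia3 with Calr to 0.25 for Hspa5 with Hsp90b1. These sparse counts limit any such correlation, and it is given as a description of 28 pairs.

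**Figure D2:**
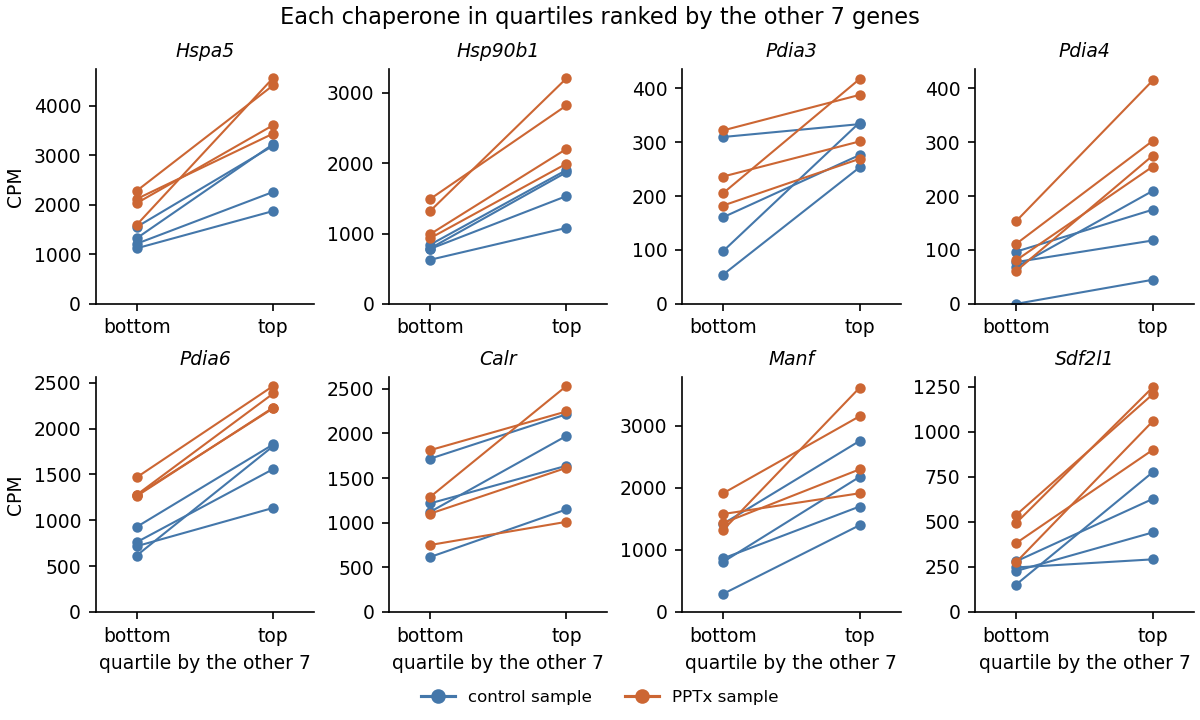
Level of each chaperone (CPM of the UMIs without the insulin genes and the other 7 chaperones) in the bottom and top quartile of β-cells, ranked by the other 7 genes, with 1 line per sample. All 8 samples rise for each gene, and the lines of Hspa5 in the top quartile end between 1875 and 4566 CPM.

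Genes outside the load were then compared between the top and bottom quartile of the same samples, with the sample as a block. CPM here are relative to the UMIs without the insulin genes and the 8 chaperones, and the hormones Gcg, Sst, Ppy and Pyy are part of the load's denominator. Of 1445 genes tested, 101 rose (6.99%) and 78 fell (5.4%) in the top quartile at an edgeR adjusted p under 0.05, and 370 had an unadjusted p under 0.05. Of all genes tested, called or not, 4.84% were higher in each of the 8 samples. The filter on low counts was set by quartile, so a gene could enter the test through either quartile alone. Among the genes below, Pdyn and Mcfd2 entered mainly through the top quartile and Cln6 mainly through the bottom quartile. DESeq2 called 47 higher and 25 lower. A fit that ignored which sample a quartile came from (no replicate block) called 54 genes, all among the 179. That fit also ended the calls of Dnajb11, Erp44, Vkorc1, Ero1lb, Ppib, Vimp, Selk, Spcs1, Sec24d, Ptprn, Ins1, Ucn3, Gcg, Ppy and Pyy described below and those of left-out Pdia3 and Calr, which is not repeated at each gene. With cells ranked within bins of UMIs, so that the quartiles were similar in median UMIs per cell, 89 genes were called higher and 58 lower, and 115 of these were among the 179 genes called before. Without the 49 β-cells with the highest doublet scores it was 88 and 74.

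The largest rise among the genes tested was that of Pdyn, which encodes the opioid precursor prodynorphin. Pdyn passed the filter through the quartile where it was high, so its rank and p-value are not independent of that filter. Pdyn ranged from 134 to 695 CPM with a median of 328 in the top quartile and from 0 to 148 with a median of 43.9 in the bottom quartile. It was higher in all 8 samples, although it rested on 274 and 36 UMIs, and its log2 fold change was 2.52 ± 0.24 (SE, edgeR adjusted p = 3.47e-11). Its mean rose over the quartiles from 57.2 to 158, 212 and 356 CPM. Dapl1, a regulator of translation and autophagy, ranged from 134 to 1552 CPM with a median of 823 in the top and from 111 to 557 with a median of 307 in the bottom quartile. It rose by 1.42 ± 0.14 (SE, edgeR adjusted p = 8.74e-11) and was higher in 8 of 8 samples. The heterotrimeric G protein subunit Gng12 rose by 0.92 ± 0.11 and Ntrk2, a neurotrophin receptor, by 0.85 ± 0.18, both in every sample. The calls of Pdyn, Dapl1, Gng12 and Ntrk2 were kept under every alternative that tested them. These alternatives numbered 18 for Pdyn, 19 for Ntrk2 and 20 for Dapl1 and Gng12. Over those alternatives the log2 fold change of Pdyn ranged from 1.63 to 2.84.

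Creld2, an ER protein of the disulfide isomerase network, ranged from 179 to 1110 CPM with a median of 719 in the top and from 0 to 538 with a median of 205 in the bottom quartile. It rose by 1.43 ± 0.16 (SE, edgeR adjusted p = 4.03e-09) and its mean over the quartiles was 251, 345, 508 and 709 CPM. Among the J-domain co-chaperones of BiP, the log2 fold change was 1.01 ± 0.12 for Dnajc3 (P58IPK), 0.98 ± 0.15 for Dnajb9 (ERdj4) and 0.85 ± 0.19 for Dnajb11 (ERdj3), all called, whereas Dnajc10 (ERdj5) at 0.45 ± 0.23 was not called (edgeR adjusted p = 0.212). In cells thinned to 2000 UMIs Dnajb9 was at 0.46 and no longer called (edgeR adjusted p = 0.171). Dnajc3 ranged from 893 to 2012 CPM in the top and from 562 to 831 CPM in the bottom quartile, with no overlap of the samples. Of the 101 genes that rose, 72 had a promoter entry and 2 of these (2.78%) held an ERSE, Creld2 and Dnajc3, against 3 of 1118 genes tested (0.268%). The letters of a second element bound by the UPR factor XBP1, TGACGTGG, were in 2 of the 72 (2.78%) and in 1.79% of the 1118. Of the 78 genes that fell, 55 had a promoter entry, of which 0 held an ERSE and 2 (3.64%) held TGACGTGG. A further element that was searched, ERSE-II (ATTGG, 1 base and CCACG), was in 0 of the 72 and in 4 of the 1118. These counts are small and were not tested.

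**Figure D3:**
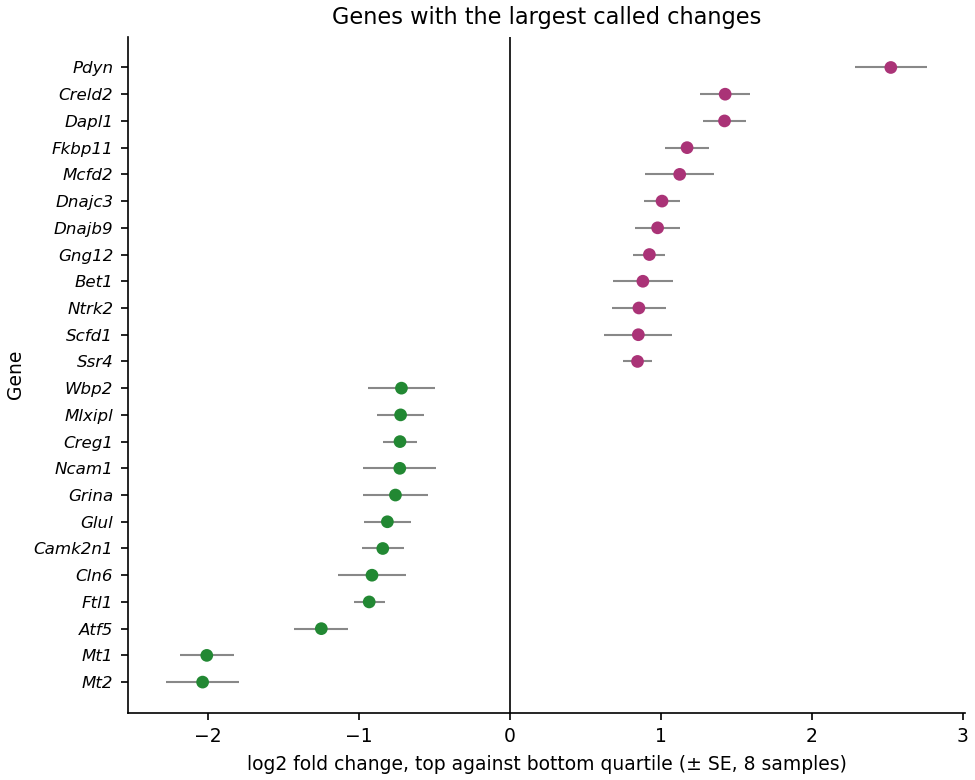
Log2 fold change between the top and bottom quartile of ER chaperone load (± SE, edgeR, 8 samples) of the genes outside the load with the largest called changes, the same direction in every sample and a mean log2 CPM of at least 6. Values range from -2.04 for Mt2 to 2.52 for Pdyn.

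Genes along the route of a secreted protein were taken from 7 lists, the UPR regulators included. Of their 109 tested genes, 37 rose (33.9%) and 0 fell, whereas 64 of the other 1336 tested genes rose (4.79%). Of the list named ER co-chaperones, which also holds other ER folding factors such as Canx, 5 of 10 tested rose. The list median log2 fold change was 0.51 against -0.03 over all genes tested. Of the oxidative folding enzymes 5 of 11 rose (median 0.37), among them Erp44, which retrieves folding enzymes to the ER, by 0.72 ± 0.16, Vkorc1 by 0.55 ± 0.15, the disulfide isomerase P4hb by 0.51 ± 0.10 and Ero1lb, the oxidase that recharges these isomerases in β-cells, by 0.47 ± 0.10. P4hb ranged from 1339 to 2827 CPM in the top and from 999 to 1832 CPM in the bottom quartile and was higher in 8 of 8 samples. The ER prolyl isomerases gave 2 rises of 4 tested (median 0.42), Fkbp11 by 1.17 ± 0.14 and Ppib by 0.69 ± 0.13. In cells thinned to 2000 UMIs P4hb was at 0.36, Ero1lb at 0.25 and Ppib at 0.31, none of them called. Fkbp11 ranged from 268 to 1160 CPM with a median of 765 in the top and from 161 to 637 with a median of 271 in the bottom quartile.

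Entry into the ER was the list with most calls by number, but not by share of the genes tested. Of 32 tested genes of the translocon, signal peptidase and glycosylation list, 15 rose (median 0.45). Ssr4 and Ssr3, subunits of the translocon-associated protein complex, rose by 0.85 ± 0.10 and 0.74 ± 0.13, and the signal peptidase subunits Sec11c and Spcs1 by 0.68 ± 0.12 and 0.66 ± 0.12. Ssr4 ranged from 1481 to 3257 CPM with a median of 2707 in the top and from 939 to 2011 with a median of 1354 in the bottom quartile, and was higher in all 8 samples. Of 36 tested genes of ER to Golgi transport, 8 rose (median 0.31), led by Mcfd2, a cargo receptor subunit, at 1.12 ± 0.23, the SNARE Bet1 at 0.88 ± 0.20, the COPII coat subunit Sec24d at 0.81 ± 0.24 and the cargo receptor Tmed3 at 0.69 ± 0.11. Mcfd2 ranged from 188 to 405 CPM in the top and from 68.2 to 161 CPM in the bottom quartile, without overlap. Scfd1, a SNARE regulator on the same route, rose by 0.85 ± 0.22. Of 15 tested genes of ER-associated degradation, 2 rose, Vimp (Selenos) by 0.49 ± 0.14 and Selk (Selenok) by 0.44 ± 0.11, with a list median of 0.39. The call of Sec24d was lost without control replicate 4, at 0.72, and that of Vkorc1 without PPTx replicate 2, at 0.48, with DESeq2 and with thinned cells. Among thinned cells Ssr3 was at 0.38, Spcs1 at 0.45, Selk at 0.20 and Vimp at 0.0083, none of them called. Vimp and Scfd1 were not called with DESeq2 either, nor Scfd1 with cells ranked within bins of UMIs.

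The regulators themselves gave few testable genes. Of the 11 UPR sensors and transcription factors in the tables, only Xbp1 passed the filter, at 466 to 893 CPM in the top and 388 to 770 CPM in the bottom quartile, and its log2 fold change of 0.11 ± 0.13 (SE, edgeR adjusted p = 0.621) was not called. The counts do not separate the spliced from the unspliced form of Xbp1. Of 4 tested genes of the integrated stress response, 0 rose and 1 fell (median -0.15), beside 6.99% and 5.4% of all genes tested. This was Atf5, a transcription factor whose translation is raised by this response, which ranged from 126 to 287 CPM with a median of 194 in the top and from 337 to 617 with a median of 411 in the bottom quartile. The samples did not overlap, and the log2 fold change of -1.25 ± 0.18 (SE, edgeR adjusted p = 8.01e-07) was kept under every alternative that tested it. Of 5 tested cytosolic aminoacyl-tRNA synthetases, 0 rose and 1 fell against the same background, Sars at -0.67 ± 0.19, a call lost under 7 of 19 alternatives, and the list median was -0.07.

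**Figure D4:**
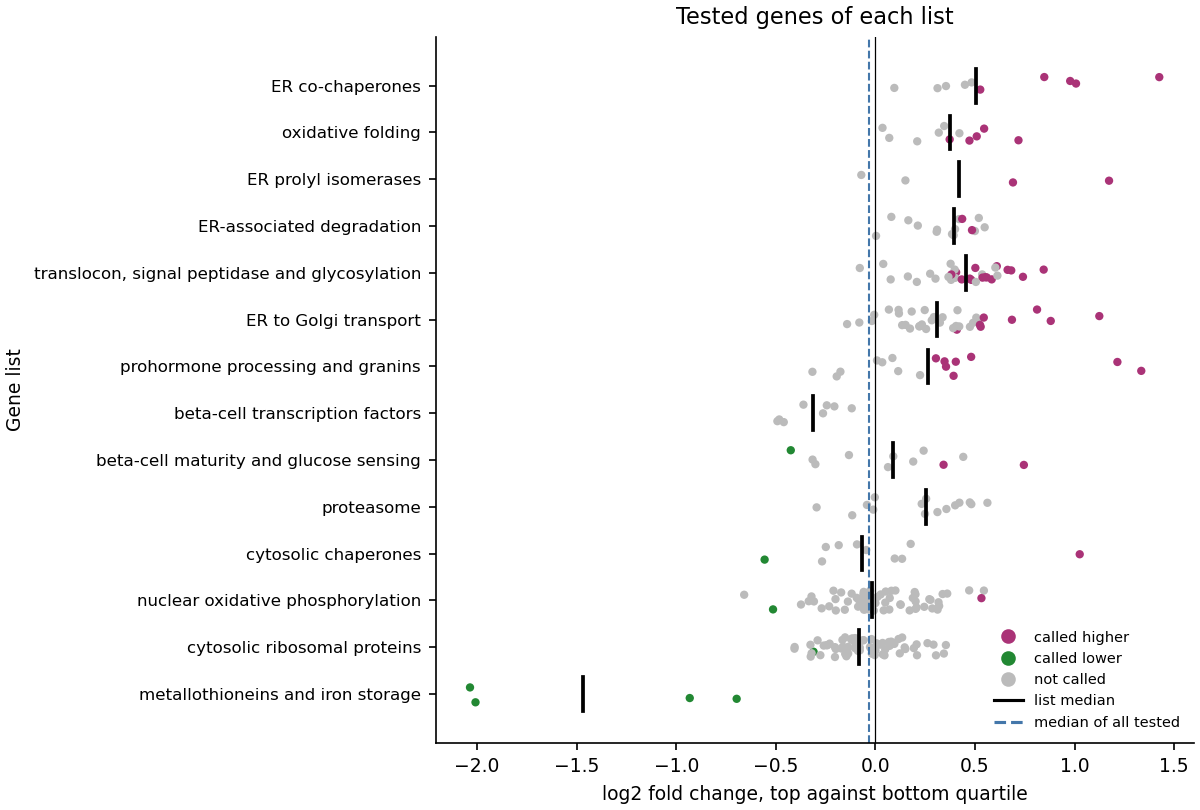
Log2 fold change between the top and bottom quartile of ER chaperone load for each tested gene of 14 lists (points), with list medians (black) and the median of all 1445 genes tested (dashed, -0.03). Points of the ER lists lie mostly to the right of 0, and those of metallothioneins and iron storage to the left.

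Genes of the insulin granule rose in part. Of 16 tested genes of prohormone processing and granins, 8 rose and 0 fell (median 0.26), beside 6.99% of all genes tested that rose. Nucb2, the precursor of nesfatin, rose by 1.34 ± 0.18 and Pcsk1, the convertase PC1/3 that cuts proinsulin, by 1.22 ± 0.19 (SE, edgeR adjusted p = 3.24e-06). Pcsk1 ranged from 134 to 558 CPM with a median of 441 in the top and from 138 to 318 with a median of 165 in the bottom quartile. It was higher in 7 of 8 samples, the exception being control replicate 1, which had the fewest cells. The granule membrane protein Ptprn rose by 0.48 ± 0.11 and the amidating enzyme Pam by 0.40 ± 0.14. The call of Pam was lost under 10 of 20 alternatives and that of Ptprn with thinned cells, at 0.34. Ins1 rose by 0.20 ± 0.06 (SE, edgeR adjusted p = 0.0103), but not with DESeq2 or with cells ranked within bins of UMIs or thinned, and it was at -0.12 when the load was taken over all UMIs. Ins2 was not called.

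Of 8 tested β-cell transcription factors, 0 were called, and all 8 had a log2 fold change below 0 (median -0.31), for example -0.36 ± 0.13 for Neurod1 (edgeR adjusted p = 0.0544, called without control replicate 3 at -0.47) and -0.24 ± 0.16 for Insm1. Of 11 tested genes of maturity and glucose sensing, 2 rose and 1 fell (median 0.09), beside 6.99% and 5.4% of all genes tested. The maturity marker Ucn3 fell by 0.42 ± 0.12 on the log2 scale (edgeR adjusted p = 0.0102), with 823 to 1418 CPM and a median of 1147 in the top and 666 to 2276 CPM and a median of 1310 in the bottom quartile. It was lower in 7 of 8 samples, and the call was lost without control replicate 3, without control replicate 4, with DESeq2 and without a filter on low counts. The synaptotagmin Syt4 rose by 0.75 ± 0.18 and the prolactin receptor Prlr by 0.34 ± 0.12. The call of Prlr was lost under 13 of 20 alternatives and that of Syt4 with cells ranked within bins of UMIs, at 0.48.

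Metallothioneins and ferritins were lower in the cells with the highest load. All 4 tested genes of this list fell (median -1.47), beside 5.4% of all genes tested. The zinc- and copper-binding metallothioneins Mt2 and Mt1 fell by 2.04 ± 0.24 and 2.01 ± 0.18 on the log2 scale (edgeR adjusted p = 1.00e-08 and 6.49e-12). Mt1 ranged from 148 to 1429 CPM with a median of 317 in the top and from 467 to 2206 with a median of 1372 in the bottom quartile. It was lower in 8 of 8 samples, least so in control replicate 1 at 1429 against 1610 CPM and by ratio most so in control replicate 3 at 148 against 1786 CPM. Its mean over the quartiles was 1391, 956, 917 and 467 CPM. The ferritin chains Ftl1 and Fth1 fell by 0.93 ± 0.10 and 0.70 ± 0.10, both in every sample, although near-identical copies in the genome make their counts uncertain. Ftl1 ranged from 697 to 1965 CPM in the top and from 1500 to 3275 CPM in the bottom quartile.

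Other genes that fell in every sample were Camk2n1, an inhibitor of CaM kinase II, at -0.84 ± 0.14, the glutamine synthetase Glul at -0.81 ± 0.15, the lysosome-linked genes Cln6 and Creg1 at -0.91 ± 0.22 and -0.73 ± 0.12, Grina at -0.76 ± 0.22, the adhesion molecule Ncam1 at -0.73 ± 0.24, the glucose-responsive factor Mlxipl (ChREBP) at -0.72 ± 0.16 and Wbp2 at -0.72 ± 0.22. The samples of Creg1 did not overlap, with 357 to 611 CPM in the top and 631 to 1040 CPM in the bottom quartile. Mlxipl ranged from 211 to 376 CPM and from 338 to 611 CPM, and its call was lost with cells ranked within bins of UMIs, thinned, or ranked by a load over all UMIs. Calls of Ncam1, Wbp2 and Grina were lost under 12 of 17, 11 of 19 and 6 of 19 alternatives that tested them, and that of Cln6 with no filter on low counts.

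For the lists of housekeeping genes the background is again the 6.99% that rose and the 5.4% that fell over all genes tested. Of 72 tested cytosolic ribosomal proteins, 0 rose and 1 fell (median -0.08), Rps15 at -0.31 ± 0.11, a call lost under 13 of 20 alternatives. Of 66 tested nuclear genes of oxidative phosphorylation, 1 rose and 1 fell (median -0.02), Cox6a2 at 0.53 ± 0.18 and Ndufa2 at -0.51 ± 0.15. The call of Cox6a2 was lost under 14 of 20 alternatives with its sign kept, and in thinned cells it was at -0.19 and not called either. That of Ndufa2 was lost under 4 of 19. None of the 15 tested proteasome genes was called (median 0.25), with Psmb4 at 0.25 ± 0.14 and Psmb1 at 0.25 ± 0.17. Of 10 tested cytosolic chaperones, 1 rose and 1 fell (median -0.07). These were the chaperonin subunit Cct8 at 1.03 ± 0.24 and Hsp90aa1, the cytosolic Hsp90, at -0.56 ± 0.19, the latter lost under 14 of 19 alternatives. None of the tested genes of MHC class I presentation (H2-K1 at -0.15 ± 0.12, Tapbp at -0.03 ± 0.19), cholesterol synthesis (Sqle at -0.19 ± 0.22) or the immediate early response (Btg2 at -0.24 ± 0.19, Jun at 0.13 ± 0.28) was called, with 3, 2 and 2 genes tested.

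Hormones of other islet cells were lower in the top quartile with the load taken outside the insulin genes, which bears on the load through its denominator. Sst was at -1.66 ± 0.21, Ppy at -1.28 ± 0.16, Pyy at -1.22 ± 0.30 and Gcg at -0.75 ± 0.18 (log2 fold change ± SE, edgeR adjusted p = 2.66e-08, 2.17e-08, 0.00401 and 0.00298). Sst was lower in 6 of 8 samples, and Ppy and Gcg each in 7 of 8. A UMI of Sst was found in 61 of 234 cells in the top and 62 of 234 in the bottom quartile, with 163 and 419 UMIs in all. Pyy was lower in 4 of 8 samples, and without PPTx replicate 3 or PPTx replicate 4 it was at -0.69 and -0.76, no longer called (edgeR adjusted p = 0.121 and 0.0541). With the load over all UMIs the direction turned for Pyy, at 0.97 and called (edgeR adjusted p = 0.0038), and for Ppy, at 0.42 and not called. Gcg was at -0.48 and no longer called without PPTx replicate 2 (edgeR adjusted p = 0.116). Summed Ppy, Pyy and other PP-cell markers ranged from 702 to 7010 CPM with a median of 1720 in the top and from 790 to 15182 with a median of 2919 in the bottom quartile. With β-cells limited to at least 30% insulin and under 1% of each other hormone, Ppy was at -0.31 and Gcg at -0.39, both no longer called, Pyy was at 0.37 and Sst at -0.63, still called. With cells ranked within bins of UMIs, Sst, Ppy and Pyy were no longer called, nor were Sst and Pyy with DESeq2. With the load over UMIs without the hormone genes, Sst, Ppy and Gcg stayed lower and called, and Pyy stayed lower but was not called, as in thinned cells. Of 10 α-cell markers, Irx1 had 0 UMIs in both quartiles, Gcg and Peg3 fell (Peg3 at -0.68 ± 0.22) and Ttr, which β-cells also express, rose by 0.26 ± 0.09. The calls of Peg3 and Ttr were lost under 12 of 19 and 10 of 20 alternatives. Fxyd6 fell by 0.75 ± 0.18 on the log2 scale, a call lost with the load over all UMIs. Acinar, ductal, endothelial, immune and stellate markers had no gene that passed the filter, with summed medians of 54.8 and 63.7, 66.8 and 43.8, 11.1 and 11.4, 88.1 and 74.9, and 0 and 0 CPM in the top and bottom quartile. The part of these hormone differences in the other results was not tested. With the stricter limits 94 genes were called higher and 78 lower, counts that do not say whether the same genes were called.

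The cells with the highest load also had more UMIs. The sample medians ranged from 3806 to 10882 UMIs per cell with a high load and from 3020 to 8762 with a low load, for example 7016 against 4125 in PPTx replicate 2 and 5112 against 5230 in control replicate 2. It was higher in the top quartile in all samples but control replicate 2, by 0.38 ± 0.23 on the log2 scale (SD of 8 samples, two-sided exact sign-flip p = 0.0156). Genes per cell were higher by 0.17 ± 0.18 (exact sign-flip p = 0.0312), but not in cells thinned to 2000 UMIs and kept in their quartile, where the medians averaged 567 in the top and 589 genes in the bottom quartile (exact sign-flip p = 0.0859). The depth of a cell and its load thus moved together, and fewer molecules captured and fewer present cannot be told apart. The median insulin share of UMIs was 60.0% ± 3.65 (SD, n = 8) in the top and 59.3% ± 3.48 in the bottom quartile, a difference within the spread of the samples (exact sign-flip p = 0.398). The study set out to follow replicating β-cells, and on average over samples 34.5% of cells in the top and 27.0% in the bottom quartile had at least 2 UMIs of 26 replication genes (exact sign-flip p = 0.227). After thinning the means were 10.4% and 11.4% (exact sign-flip p = 0.766), so for this measure no difference was detectable at equal depth. At least 2 UMIs of 10 genes of dividing cells (among them Mki67, Top2a and Cdk1) were found in 13 of 234, 12 of 229, 9 of 226 and 4 of 234 cells from the bottom to the top quartile (5.56%, 5.24%, 3.98% and 1.71%, cells of all samples together, not thinned and with no test), although median UMIs per cell ran from 5101 to 7373. Of the 26 genes, Tubb5 passed the filter, at -0.09 ± 0.24, and among cyclins Ccnd2 was at 0.07 ± 0.10 and Ccnd1 at 0.37 ± 0.14, none called. Ccnd1 was called under 4 of 20 alternatives, at 0.50 without PPTx replicate 1 and 0.44 without PPTx replicate 4 among them.

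The load was then compared between PPTx and control, which the ranking within samples did not use. The median load over all β-cells of a sample was 0.526%, 0.638%, 0.928% and 0.702% in control and 1.09%, 1.03%, 1.10% and 1.10% in PPTx replicates. The groups did not overlap, and the mean of 1.08% ± 0.0341 (SD, n = 4) in PPTx was above that of 0.698% ± 0.169 in control, with a two-sided exact permutation p of 0.0286, the smallest that 4 against 4 samples allow. The median of the bottom quartile also differed, at 0.651% ± 0.0385 against 0.396% ± 0.144 (SD, n = 4, exact permutation p = 0.0286). With 1 limit of 1.23% for all samples, the pooled upper quartile, 0%, 6.58%, 18.9% and 11.2% of β-cells lay above it in control and 29.9%, 31.2%, 38.6% and 39.1% in PPTx replicates. The 0 of 54 cells in control replicate 1 allow a share of up to 5.56%.

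Within the cells with the highest load, few single genes passed the test between the groups across all genes. Of 1763 genes tested, 1 rose (0.0567%) and 1 fell (0.0567%) after PPTx, 0.113% together, at an edgeR adjusted p under 0.05, 155 had an unadjusted p under 0.05, and DESeq2 called 3 higher and 1 lower. CPM are here relative to all UMIs outside the insulin genes. None of the 8 chaperones was called, although all 8 had a log2 fold change above 0, with a median of 0.52 against 0.00 over all genes tested. Sdf2l1 was at 442, 372, 715 and 904 CPM in control and 1453, 1327, 1119 and 1016 CPM in PPTx replicates, without overlap, a log2 fold change of 0.95 ± 0.23 (SE, edgeR adjusted p = 0.0849). Hsp90b1 was at 1239, 1581, 2205 and 1975 CPM in control and 2285, 3284, 3468 and 2577 CPM in PPTx replicates, again without overlap, at 0.72 ± 0.19 (edgeR adjusted p = 0.101). Hspa5 was at 2212, 2744, 3389 and 3732 CPM in control and 3776, 4182, 4596 and 5060 CPM in PPTx replicates, at 0.54 ± 0.18 (edgeR adjusted p = 0.314). With cells thinned to 2000 UMIs Hsp90b1 and Pdia6 were called, and over all β-cells Sdf2l1 and Pdia6 were. A fit with the replicate number as a block gave 27 calls, although the numbers were not taken as pairs. Among these were Sdf2l1, Hsp90b1 and Hspa5 (edgeR adjusted p = 5.74e-04, 0.00123 and 0.0219).

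The other chaperones fell into 2 kinds. Pdia6 and Pdia4 also kept the groups apart, at 0.49 ± 0.17 and 0.88 ± 0.30, so that 5 of the 8 genes did not overlap and were higher in PPTx, against 1.93% of all genes tested, with 5.05% not overlapping in either direction. Manf, Pdia3 and Calr overlapped, at 0.39 ± 0.19, 0.20 ± 0.24 and 0.06 ± 0.23, and Calr turned to -0.11 without PPTx replicate 4. Over all β-cells in place of the top quartile, Sdf2l1 and Pdia6 were called, at 1.08 ± 0.19 and 0.69 ± 0.14 (edgeR adjusted p = 0.00797 and 0.0252). In the bottom quartile none of the 7 chaperones tested was called, with Hspa5 at 0.63 ± 0.19 and Sdf2l1 at 0.98 ± 0.32.

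The 2 called genes were Ppy and Ttc28. Ppy, the pancreatic polypeptide gene, was at 310, 465, 169 and 281 CPM in control and 2795, 1053, 795 and 2445 CPM in PPTx replicates, a log2 fold change of 2.65 ± 0.36 (SE, edgeR adjusted p = 7.95e-05). The groups did not overlap. The rise was not particular to these cells, since Ppy was also at 3.64 ± 0.43 in the bottom quartile (edgeR adjusted p = 1.24e-05). Over all cells of a sample, the groups overlapped and Ppy ranged from 39930 to 114228 CPM with a median of 63183 in control and from 95630 to 137825 with a median of 117686 in PPTx, and the part of RNA from PP cells in its level in β-cells was not tested. Ttc28 was at 310, 419, 307 and 364 CPM in control and 62.1, 85.8, 166 and 188 CPM in PPTx replicates, at -1.52 ± 0.31 (edgeR adjusted p = 0.0340). That call was lost under 11 of 21 alternatives, among them the sets without control replicate 2, control replicate 4, PPTx replicate 1 or PPTx replicate 2, and that of Ppy under 2 of 22, with cells ranked within bins of UMIs and with tertiles in place of quartiles.

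Whether the top quartile differed from the bottom quartile in another way after PPTx was tested by an interaction term, and 2 of 1445 genes were called (0.138%), both lower, with 65 at an unadjusted p under 0.05. Txnip, the glucose-induced inhibitor of thioredoxin, was at 1518, 776, 764 and 1106 CPM in the top quartile and at 555, 376, 326 and 295 CPM in the bottom quartile of control replicates. In PPTx replicates it was at 315, 680, 584 and 287 CPM in the top and 449, 476, 875 and 657 CPM in the bottom quartile. Txnip was thus higher with a high load in 4 of 4 control samples and in 1 of 4 PPTx samples, and the difference of the 2 contrasts was -1.69 ± 0.30 on the log2 scale (SE, edgeR adjusted p = 0.00162). The call was lost with DESeq2, which called 0 genes, without control replicate 4 and without PPTx replicate 3. Pyy, a peptide hormone gene, differed by -2.66 ± 0.59 (edgeR adjusted p = 0.0386). Pyy went from 688 CPM in the bottom to 1201 CPM in the top quartile of control replicate 4 and from 8122 to 862 CPM in PPTx replicate 4. It was higher in the top quartile in 3 of 4 control and 1 of 4 PPTx samples, and the call was lost under 6 of 11 alternatives.

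**Figure D5:**
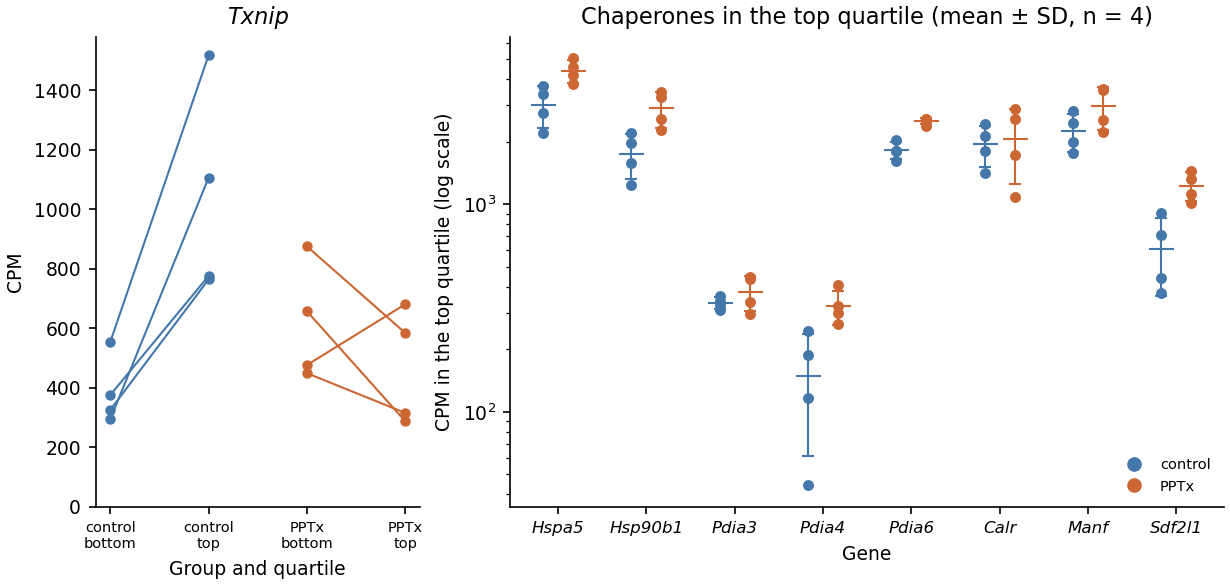
Left, Txnip (CPM) in the bottom and top quartile of ER chaperone load, with 1 line per sample. Right, CPM (log axis) of the 8 chaperones in the top quartile, with points for samples and mean ± SD of 4 control and 4 PPTx samples. Txnip rises from bottom to top in all 4 control samples and in 1 PPTx sample.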

How the data were processed

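Single islet cells of 4 control and 4 PPTx samples were profiled in droplets. The labels and methods name the ddSEQ isolator, and the labels name a Chromium kit, the methods a SureCell kit. The authors aligned reads to mm10, counted UMIs with Cell Ranger and deposited 1 table per sample of raw UMI counts, with cells in rows and gene symbols in columns. The methods name filtering with Cell Ranger, but the sources used here do not give the limits by which cells were selected before deposit. No β-cell had under 2005 UMIs. The tables list 0 mitochondrial genes, so no mitochondrial share was computed. Of 1240 cells with 24421 genes, 1232 were within the limits. 1 barcode occurred in more than 1 sample.

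Counts were summed per sample and quartile and analysed by edgeR's quasi-likelihood test (version 4.0.16 in R 4.3.3, TMM scaling after filterByExpr, Benjamini-Hochberg adjustment at 0.05), with the sample as a block for top against bottom. A gene was kept if it reached the limit of the filter in as many sums as either quartile or either group held. Library sizes left out Ins1 and Ins2 and, for top against bottom, the 8 chaperones. SE are the absolute log2 fold change over the root of F. Sample values were compared by exact permutation or exact sign flips, two-sided (scipy 1.17.1). The fits were tested on simulated data. DESeq2 1.42.0, other denominators, UMI bins, thinning, tertiles, stricter limits, doublets and left-out samples were tried. Scrublet (scanpy 1.11.5) at an expected rate of 6% called 0 β-cells, which is too few to have worked, so the 6% of cells with the highest scores were left out instead. That setting, and the bottom quartile or all β-cells in place of the top quartile, were chosen after seeing the data.

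Named genes were the chaperones, at most 12 called genes per direction by size of change, given a mean log2 CPM of at least 6 and 1 direction in all samples or no overlap of the groups, and per list up to 4 called members or, with none called, the 2 most abundant. 1 gene that this rule named is not reported here. The cells and the lists were chosen with earlier results of these data known. Promoter sequences are RefSeq's for GRCm38.p6. The limits a count of 0 allows cover counting error only.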

Additional observations from a re-analysis of the deposited data

Results flagged for a closer look

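Of 54 sets of samples examined, 3 held a sample far from the others, where chance gives about 1 in 20. The median load of PPTx replicate 2, at 1.03%, lay apart from those of the other PPTx samples at 1.09% to 1.10%. Pdia6 in the top quartile of PPTx replicate 3, at 2377 CPM, lay below the other PPTx samples at 2552 to 2577 CPM. The difference of Pdyn between the top and bottom quartile was 667 CPM in control replicate 4 and 134 to 343 CPM in the other samples.

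The contrast of top against bottom quartile differed between PPTx and control for Txnip, by -1.69 on the log2 scale, and for Pyy, by -2.66, both by an interaction term in edgeR.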

How the results depend on the processing

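Between the quartiles 179 genes were called, DESeq2 called 72, all among them, thinned cells 23 of 275 genes tested (21 shared), and the fit with no replicate block 54 (54 shared), and leaving out 1 sample gave 122 (control replicate 4) to 203 (control replicate 2). All other settings stayed within 1.5 times. Calls in thinned cells were 10 higher and 13 lower, against 101 higher and 78 lower in the main fit. For PPTx against control, 2 calls became 4 with DESeq2, 8 with no filter on low counts, 6 with thinned cells, 7 in the bottom quartile and 18 over all β-cells, 1 with the load over all UMIs, over UMIs without hormones or without the highest doublet scores, and 0 within bins of UMIs or with tertiles, and 1 to 5 without 1 sample. For the interaction, 2 calls became 0 with DESeq2, 4 with no filter, and 0 to 3 without 1 sample. The difference in median load was 0.323 to 0.457 points without 1 sample, where the smallest possible exact permutation p is 0.0571. Left-out chaperones called numbered 6 to 8 without 1 sample.

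Replicate numbers were shared by the groups. Same-numbered samples correlated at 0.118, 0.0107, 0.154 and 0.116, and samples of different numbers at -0.108 to 0.0512. The numbers were not taken as pairs, since replicate 2 was at 0.0107 and control replicate 2 correlated best with PPTx replicate 3. With the replicate block, PPTx against control gave 27 calls, 3 of the 8 chaperones among them (Hspa5, Hsp90b1 and Sdf2l1), and the load difference of 0.380 had an exact permutation p of 0.125, the smallest 4 pairs allow.

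Within bins of UMIs the difference in log2 UMIs was -0.0057 and in log2 genes -0.047. Log2 genes were at -0.034 in cells thinned before the quartiles were drawn anew, 0.13 with tertiles and 0.12 to 0.21 without 1 sample. The insulin share was at -4.48 points with the load over all UMIs, and replication at -1.22 points in the same thinned quartiles. Signs turned with the load over all UMIs for Ins1 (-0.12), Insm1 (0.036), Tubb5 (0.022), Ccnd2 (-0.053), Ppy (0.42) and Pyy (0.97), and with stricter limits for Tapbp (0.082) and Pyy (0.37). They turned in thinned cells for Xbp1 (-0.016), Cox6a2 (-0.19) and Calr between groups (-0.089), with tertiles for Tubb5 (0.059), with no filter for Tubb5 (0.036) and Tapbp (0.088), for Tapbp with DESeq2 (0.012) and without TMM (0.0088), and without the block for Jun (-0.0098). Without 1 sample Tubb5 ranged from -0.38 to 0.086, Tapbp from -0.15 to 0.047 and Calr between groups from -0.11 to 0.28. The causes were not tested. Depth limits genes under the filter, and control replicate 1 most.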
